A study of Mus musculus with 11 samples.

Results

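The genes described here are 48 genes of the secretory pathway of the endoplasmic reticulum (ER), taken as a fixed list of gene symbols and found by their Entrez IDs in both deposited count tables, among 24809 genes in the RNA table and 24541 in the H3K4me3 table. They fall into 5 groups by role: 14 genes of N-glycan assembly, 6 subunits of oligosaccharyltransferase, 8 of the translocon, 8 lumenal or membrane chaperones and 12 of the unfolded protein response. They were measured in granulosa cells, which enclose the egg cell in a follicle of the ovary and feed it, from C57BL/6 mice given equine chorionic gonadotropin (eCG) 48 h earlier and from untreated mice, called 48 h and 0 h here. In mice eCG acts on the receptor for follicle-stimulating hormone (FSH), and FSH is what the labels call the treatment. RNA-seq covered 3 libraries at 48 h and 3 at 0 h, labelled as postnatal day 21, and ChIP-seq of H3K4me3, a histone mark of active promoters, covered 2 libraries at 48 h and 2 at 0 h, for which no age is labelled. The series calls the libraries of a group biological replicates. The RNA cells were collected by follicular puncture, and the labels do not say how many mice gave each library. No untreated group was taken 48 h later, so eCG and the time passed cannot be told apart.

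Proteins bound for the cell surface or for secretion enter the ER through the translocon as they are made. An oligosaccharide, built on the lipid dolichol by the Alg enzymes, is transferred as one block to asparagines of the growing chain by oligosaccharyltransferase, and chaperones then fold the chain and form its disulfide bonds. When unfolded protein accumulates, 3 sensors, Ern1 (IRE1), Eif2ak3 (PERK) and Atf6, start the unfolded protein response, which raises many chaperone genes. Granulosa cells secrete the inhibins and carry the FSH receptor, which are glycoproteins made by this route.

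RNA libraries held 12013849 to 26343971 counts at 48 h and 15050013 to 18511429 at 0 h, while those of H3K4me3 had 17137463 and 17968033 (48 h) and 15124233 and 11989769 (0 h). Levels are normalised read counts (CPM, with TMM scaling) and are not divided by gene length, so they are compared between libraries. Counts of different genes are set side by side only for the H3K4me3 background and for overlapping or neighbouring genes. Of 6 granulosa markers, Fshr, Foxl2, Inha and Cyp19a1 were higher at 48 h and Amh was lower, with summed levels of 18957 to 20644 CPM at 48 h and 9391 to 12002 CPM at 0 h. Of 8 endothelial markers, 7 were higher, with summed levels of 177 to 537 CPM at 48 h and 92.8 to 96.9 CPM at 0 h. All 3 red cell markers that could be tested were higher, with sums of 164 to 685 CPM at 48 h and 68.5 to 129 CPM at 0 h, while the 4 globin genes were listed at 0 in every library. Of 7 oocyte markers tested, 3 were lower, with sums of 32.0 to 80.4 CPM at 48 h and 76.1 to 83.6 CPM at 0 h, and of 6 theca markers 2 were lower, with sums of 517 to 1647 CPM at 48 h and 760 to 1279 CPM at 0 h. None of 5 immune markers tested passed in edgeR, nor at an unadjusted p under 0.05 (sums of 136 to 234 CPM at 48 h and 176 to 264 CPM at 0 h), and 1 of 6 smooth muscle markers was higher (156 to 364 CPM at 48 h and 250 to 287 CPM at 0 h). The 48 h replicate 1 library stood apart, with the highest endothelial (537 CPM) and theca (1647 CPM) sums of all 6 RNA libraries and an oocyte sum (80.4 CPM) like that of 0 h. Cyp17a1 alone gave 1482 CPM of that theca sum. In that library Thbd and Ces1d also lay above every 0 h library, while Ptch1, Gli1 and Insl3 lay below. Inha and Alas2 likewise made up most of the granulosa and red cell sums. The part of these other cell types in the results below was not tested, and in bulk samples a change in the cells present and a change in RNA per cell cannot be told apart.

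RNA of the secretory pathway genes was higher at 48 h across all 5 groups. Of the 48 members, 35 (72.9%) were higher at 48 h than at 0 h, none was lower and 13 did not pass, with edgeR (quasi-likelihood test, p-values adjusted by Benjamini-Hochberg over all 14401 genes tested, threshold 0.05). Of all genes tested, 16.0% were higher and 15.8% lower, 31.8% together. At an unadjusted p under 0.05, 1 member was lower, Ddit3, and DESeq2 called none lower. The median log2 fold change of the members was 0.47, against -0.03 for all genes tested, and their values ran from -0.47 to 0.86. The changes were moderate, with the called members 1.24 to 1.82 times their 0 h level, and 16 of the 35 calls had an adjusted p between 0.01 and 0.05. In 37 of the 48 members all 3 libraries at 48 h lay above all 3 at 0 h and in 2 of the 48, Alg13 and Ddit3, all lay below, against 22.1% and 25.8% of all genes. The members together summed to 32087, 27024 and 26410 CPM in the 48 h libraries and 21077, 17635 and 19045 CPM in the 0 h libraries. Every 48 h library thus had a larger sum than every 0 h library. The 8 chaperones made up most of each sum, with 17517 to 21514 CPM at 48 h and 11349 to 13792 CPM at 0 h. Without 48 h replicate 1, which stood apart, 33 members were higher and 1, Ddit3, was lower. Without 0 h replicate 2, the library in which 36 of the members had their lowest 0 h value, 23 were higher, with 1580 of all genes higher, against 2303 with every library in. Scaling by library size alone gave 24 members higher and 3 lower (Alg13, Atf4 and Ddit3), with 1543 genes higher and 4222 lower over the whole table against 2303 and 2282 with TMM.

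**Figure D1:**
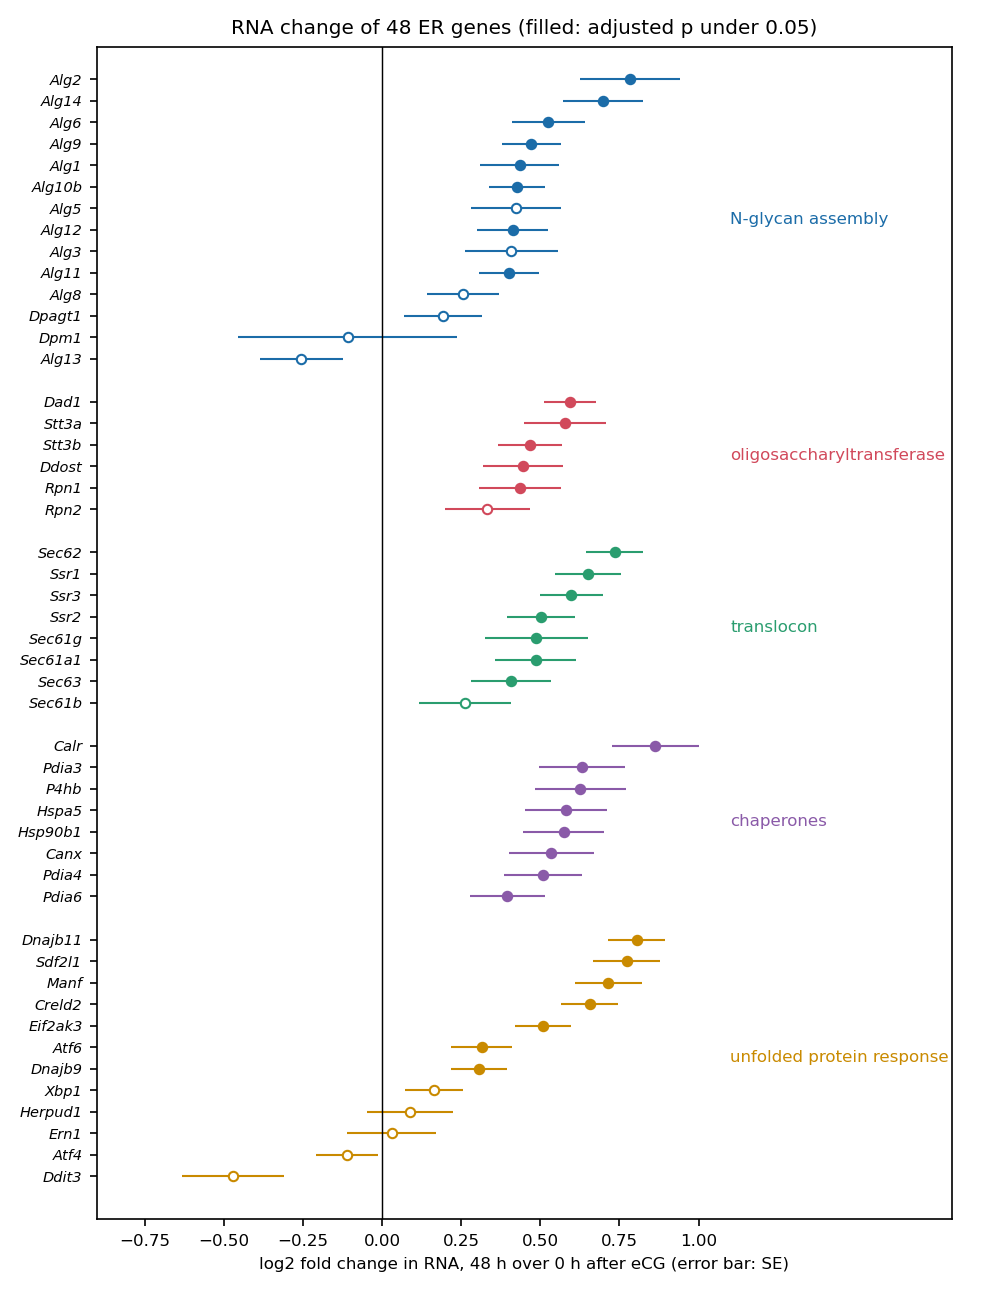
Log2 fold change in RNA, 48 h over 0 h, with its standard error, for each of the 48 genes by group; filled points passed the threshold of 0.05 and open points did not, and the vertical line marks no change. The filled points run from 0.31 to 0.86 and all lie to the right of the line.

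Among the enzymes of N-glycan assembly, 8 of 14 were higher at 48 h and 6 did not pass, with a median log2 fold change of 0.42. The first sugars are added on the cytosolic face of the ER. Dpagt1, which adds the first N-acetylglucosamine phosphate to dolichol, had 68.2, 57.6 and 53.3 CPM at 48 h and 58.6, 45.8 and 52.6 CPM at 0 h. Those groups overlapped, and the log2 fold change of 0.19 ± 0.12 (standard error, SE) did not pass (edgeR adjusted p = 0.263). The second N-acetylglucosamine is added by the pair Alg13 and Alg14, whose genes gave different results. Alg14, the membrane anchor of the pair, had 19.6, 20.5 and 20.6 CPM at 48 h and 14.3, 10.9 and 12.3 CPM at 0 h, or 20.2 ± 0.596 and 12.5 ± 1.71 CPM (mean ± SD, n = 3 each). All 48 h libraries were above all 0 h libraries, and the gene was higher at 1.62-fold, a log2 fold change of 0.70 ± 0.13 (SE, edgeR adjusted p = 0.00425). Alg13, the catalytic partner, had 24.5, 32.5 and 35.5 CPM at 48 h and 37.3, 37.4 and 35.7 CPM at 0 h. Its 48 h libraries all lay below its 0 h libraries, but the log2 fold change of -0.25 ± 0.13 (SE) did not pass (edgeR adjusted p = 0.172), and the difference between the subunits was not tested.

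The next cytosolic steps add mannose. Alg2 (ID 56737, chr4:47469833-47474367 in GRCm38.p6), which adds a pair of mannoses to that placed by Alg1, had the largest log2 fold change of the 14. Its levels were 177, 126 and 121 CPM at 48 h and 84.3, 70.6 and 91.2 CPM at 0 h, or 141 ± 30.9 and 82.0 ± 10.5 CPM (mean ± SD, n = 3 each). The groups did not overlap, with 48 h replicate 1 the highest, and the gene was 1.72 times higher (log2 fold change 0.78 ± 0.16 SE, edgeR adjusted p = 0.00665). Alg1, which adds the first mannose, and Alg11, which acts after Alg2, were also higher, with log2 fold changes of 0.43 and 0.40. In the ER lumen, the mannosyltransferase Alg9 had 76.7, 73.3 and 66.5 CPM at 48 h and 55.6, 47.5 and 53.1 CPM at 0 h, or 72.2 ± 5.16 and 52.1 ± 4.17 CPM (mean ± SD, n = 3 each). All 48 h libraries were above all 0 h libraries, at 1.39-fold (log2 fold change 0.47 ± 0.09 SE, edgeR adjusted p = 0.00618). Of the other lumenal mannosyltransferases, Alg12 was higher, with a log2 fold change of 0.41, and Alg3 at 0.41 did not pass (edgeR adjusted p = 0.0642).

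Alg6, Alg8 and Alg10b cap the oligosaccharide with glucose, the last part that oligosaccharyltransferase recognises. Alg6, the first of these glucosyltransferases, had 39.4, 31.2 and 32.3 CPM at 48 h and 25.8, 23.5 and 22.2 CPM at 0 h, or 34.3 ± 4.45 and 23.8 ± 1.83 CPM (mean ± SD, n = 3 each). The groups did not overlap, and the gene was 1.44 times higher (log2 fold change 0.53 ± 0.12 SE, edgeR adjusted p = 0.00969). Alg10b, which adds the last glucose, was higher with a log2 fold change of 0.43, and Alg8, between them, at 0.26 did not pass (edgeR adjusted p = 0.121). The sugar donors of the lumenal steps did not pass: Alg5, which makes dolichol-phosphate glucose, had a log2 fold change of 0.42 (edgeR adjusted p = 0.0501), and Dpm1, the catalytic subunit for dolichol-phosphate mannose, -0.11 ± 0.35 (SE, edgeR adjusted p = 0.884). Dpm1 had 0.767, 0.800 and 0.610 CPM at 48 h and 1.03, 0.741 and 0.633 CPM at 0 h. It had only 80 counts over the 6 libraries, too few to detect a change of moderate size. It overlaps Gm20716, itself listed at 0, and reads of overlapping genes may not be told apart. Of the calls named here, Alg1 did not pass without 0 h replicate 1, 2 or 3 (edgeR adjusted p = 0.0617, 0.0864 and 0.0634) and Alg12 not without 0 h replicate 1 or 2 (0.057 and 0.0799). Alg3 passed without 0 h replicate 3 (0.0426).

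Oligosaccharyltransferase moves the finished oligosaccharide to the protein, and 5 of its 6 listed subunits were higher at 48 h, with a median log2 fold change of 0.46 and no overlap between the groups in any of the 6. Dad1, a small subunit named as a defender against cell death, had 114, 115 and 111 CPM at 48 h and 79.1, 68.5 and 77.2 CPM at 0 h, or 113 ± 1.92 and 74.95 ± 5.63 CPM (mean ± SD, n = 3 each). The 48 h libraries lay close together and above all 0 h libraries, at 1.51-fold (log2 fold change 0.59 ± 0.08 SE, edgeR adjusted p = 0.00135). Both catalytic subunits were higher. Stt3a, the catalytic subunit of the complex that works at the translocon, had 769, 601 and 585 CPM at 48 h and 454, 401 and 455 CPM at 0 h, or 652 ± 102 and 436 ± 31.0 CPM (mean ± SD, n = 3 each). Its highest value was that of 48 h replicate 1, and it was 1.49 times higher (log2 fold change 0.58 ± 0.13 SE, edgeR adjusted p = 0.0103). Stt3b, which serves the complex that modifies sites skipped during translocation, had 529.9, 481 and 448 CPM at 48 h and 369.9, 334 and 352 CPM at 0 h, or 487 ± 41.0 and 352 ± 18.2 CPM (mean ± SD, n = 3 each). It was 1.38 times higher with no overlap (log2 fold change 0.47 ± 0.10 SE, edgeR adjusted p = 0.00877).

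The other listed subunits are non-catalytic. Ddost had 668, 562 and 537 CPM at 48 h and 486, 386 and 427 CPM at 0 h, or 589 ± 69.8 and 433 ± 50.3 CPM (mean ± SD, n = 3 each). It was 1.36 times higher with no overlap (log2 fold change 0.44 ± 0.13 SE, edgeR adjusted p = 0.0273). Rpn1 (ribophorin I) was higher with a log2 fold change of 0.44. Rpn2 (ribophorin II) had 1238, 953 and 952 CPM at 48 h and 905, 762 and 827 CPM at 0 h, and its log2 fold change of 0.33 ± 0.13 (SE) did not pass (edgeR adjusted p = 0.0897) although the groups did not overlap. The Ddost call was lost without 48 h replicate 2 or 0 h replicate 2 or 3 (edgeR adjusted p = 0.0529, 0.0961 and 0.0894) and the Rpn1 call without 48 h replicate 2 or 3 or 0 h replicate 2 or 3 (0.0524, 0.0565, 0.114 and 0.0918).

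At the translocon, 7 of 8 genes were higher at 48 h, with a median log2 fold change of 0.50. Sec62 (ID 69276, chr3:30792876-30821263), a membrane protein that helps short and post-translationally delivered chains through the channel, had the largest. Its levels were 343, 335 and 312 CPM at 48 h and 202, 187 and 206 CPM at 0 h, or 329.9 ± 15.8 and 198 ± 9.63 CPM (mean ± SD, n = 3 each). The groups lay far apart for their spread, at 1.66-fold (log2 fold change 0.73 ± 0.09 SE, edgeR adjusted p = 8.14e-04). Its partner Sec63, which recruits the chaperone Hspa5 to the channel, was higher with a log2 fold change of 0.41. The translocon-associated proteins, which sit beside the channel and help some signal sequences to engage it, were all higher. Ssr1 had 620.2, 565 and 528 CPM at 48 h and 372, 334 and 385 CPM at 0 h, or 571 ± 46.5 and 364 ± 26.3 CPM (mean ± SD, n = 3 each), and was 1.57 times higher (log2 fold change 0.65 ± 0.11 SE, edgeR adjusted p = 0.0026). Ssr3 had 812, 769.8 and 716 CPM at 48 h and 505, 478 and 535 CPM at 0 h, or 766 ± 48.0 and 506 ± 28.3 CPM (mean ± SD, n = 3 each), and was 1.51 times higher (log2 fold change 0.60 ± 0.10 SE, edgeR adjusted p = 0.00291). Ssr2 had 369, 329 and 326 CPM at 48 h and 263, 215 and 244 CPM at 0 h, or 341 ± 24.1 and 241 ± 24.1 CPM (mean ± SD, n = 3 each), and was 1.42 times higher (log2 fold change 0.50 ± 0.11 SE, edgeR adjusted p = 0.00818). In each of these 3 genes every 48 h library was above every 0 h library.

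The channel itself is formed by Sec61a1, the pore, with the small subunits Sec61b and Sec61g. Sec61a1 was higher at 48 h with a log2 fold change of 0.49, as was Sec61g with 0.49, although the Sec61g groups overlapped. Sec61b had 65.2, 67.3 and 74.7 CPM at 48 h and 72.5, 50.2 and 50.2 CPM at 0 h, where 0 h replicate 1 lay within the 48 h range. Its log2 fold change of 0.26 ± 0.15 (SE) did not pass (edgeR adjusted p = 0.202), and without that library it did (0.0125). The Sec61g call was lost in 5 of the 6 fits that left out 1 library, that without 0 h replicate 1 being the exception (edgeR adjusted p = 0.0762, 0.0631, 0.119, 0.144 and 0.157 without 48 h replicates 1, 2 and 3 and 0 h replicates 2 and 3). The Sec63 call was lost without 48 h replicate 2 or any 0 h library (0.0508 and 0.0744 to 0.0975) and the Sec61a1 call without 0 h replicate 2 (0.0740).

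All 8 chaperones were higher at 48 h, with no overlap between the groups in any of them, and they had the highest median log2 fold change of the 5 groups, 0.58. Calreticulin and calnexin hold glycoproteins by their glucose-capped sugars while they fold. Calr (calreticulin, ID 12317, chr8:84842088-84846931) had the largest change of all 48 members. Its levels were 3451, 2876 and 2806 CPM at 48 h and 1901, 1496 and 1622 CPM at 0 h, or 3044 ± 354 and 1673 ± 207 CPM (mean ± SD, n = 3 each). The lowest 48 h library was well above the highest 0 h library, at 1.82-fold (log2 fold change 0.86 ± 0.14 SE, edgeR adjusted p = 0.00237). Its membrane-bound relative Canx (calnexin) was 1.45 times higher.

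The protein disulfide isomerases form and reshuffle disulfide bonds. Pdia3, which works with calreticulin and calnexin on glycoproteins, had 2509, 2179 and 2034 CPM at 48 h and 1663, 1285 and 1389 CPM at 0 h, or 2241 ± 244 and 1446 ± 195 CPM (mean ± SD, n = 3 each). It was 1.55 times higher (log2 fold change 0.63 ± 0.14 SE, edgeR adjusted p = 0.00886). P4hb, the best known isomerase and a subunit of collagen prolyl hydroxylase, had 2498, 1918 and 1864 CPM at 48 h and 1474, 1215 and 1379 CPM at 0 h, or 2093 ± 351 and 1356 ± 131 CPM (mean ± SD, n = 3 each). It was 1.54 times higher, with 48 h replicate 1 above the other two 48 h libraries (log2 fold change 0.63 ± 0.14 SE, edgeR adjusted p = 0.0117). Pdia4 and Pdia6 had log2 fold changes of 0.51 and 0.40. Hspa5 (BiP or GRP78, ID 14828, chr2:34772090-34776529), the main Hsp70 chaperone of the ER and a binding partner that keeps the stress sensors inactive, had 4331, 3615 and 3659 CPM at 48 h and 2871, 2371 and 2512 CPM at 0 h, or 3868 ± 401 and 2585 ± 258 CPM (mean ± SD, n = 3 each). It was 1.497 times higher with no overlap (log2 fold change 0.58 ± 0.13 SE, edgeR adjusted p = 0.00987). Hsp90b1 (GRP94), the Hsp90 of the ER, had a log2 fold change of 0.57. The calls of Canx and Pdia4 were lost without 0 h replicate 2 or 3 (edgeR adjusted p = 0.0650 and 0.0553 for Canx, 0.0551 and 0.0642 for Pdia4), and that of Pdia6 without 48 h replicate 2 or 0 h replicate 2 or 3 (0.0612, 0.111 and 0.113).

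**Figure D2:**
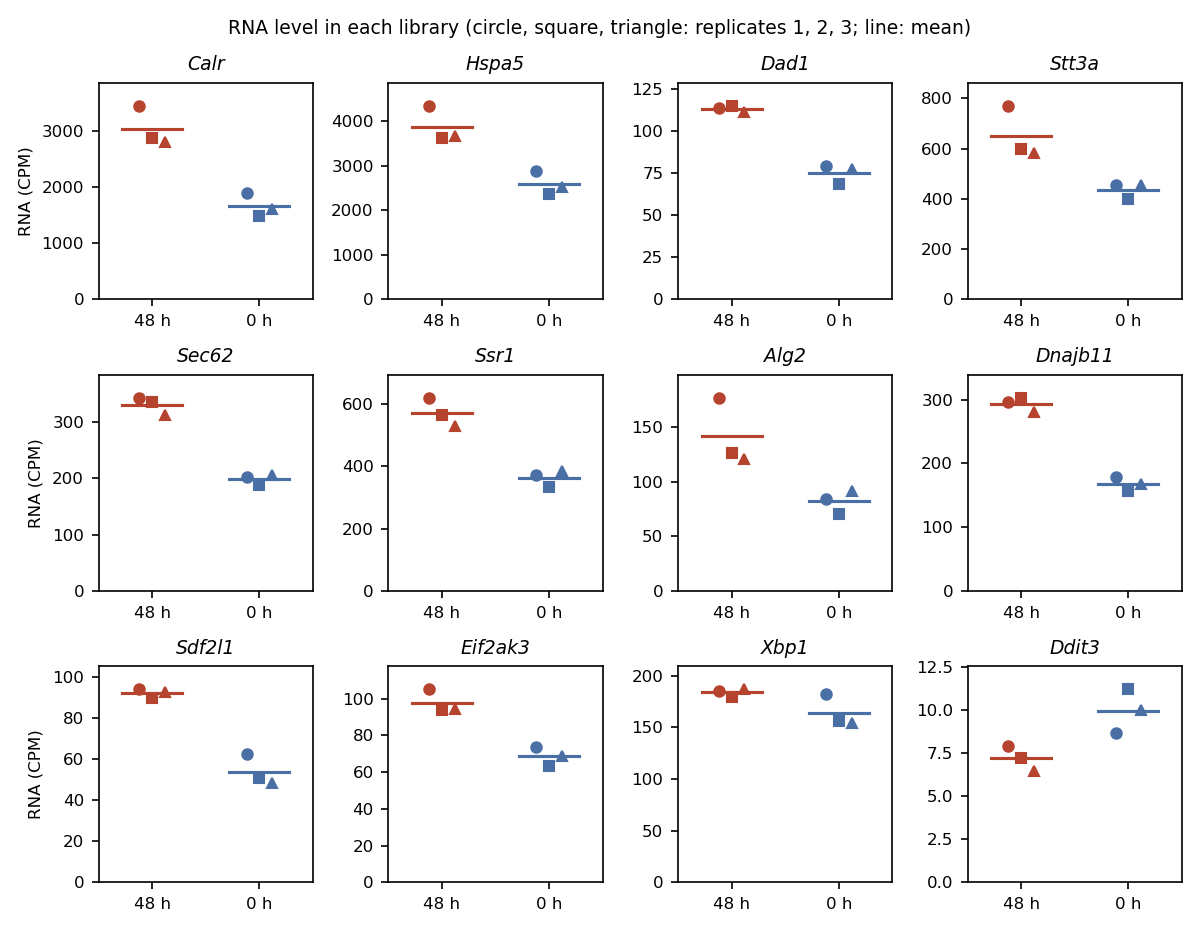
Normalised read count (CPM) in each RNA library for 12 of the genes, with 48 h to the left of 0 h in each panel; points are libraries, marked by replicate, and lines their mean. Calr, Hspa5, Dad1, Stt3a, Sec62, Ssr1, Alg2, Dnajb11, Sdf2l1 and Eif2ak3 show no overlap with 48 h higher, Xbp1 overlaps, and the 3 libraries of Ddit3 at 48 h (6.44 to 7.90 CPM) lie below those at 0 h (8.68 to 11.2 CPM).

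The ER stress response element (ERSE, letters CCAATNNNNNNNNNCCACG) was described from promoters of such chaperone genes. It is a site bound by the CCAAT factor NF-Y together with the active forms of Atf6 and Xbp1. RefSeq promoter windows of GRCm38.p6, from 250 bases before to 50 after the start, were found for 41 of the 48 members (42 windows), and both strands were searched. The ERSE letters were in 7 of the 42 windows (16.7%), against 0.119% of all 32851 windows. Those 7 genes are 5 chaperones, Alg12 and Creld2. They are shown because all 7 were higher in RNA at 48 h, as were 22 of the 34 members with a window that lacked the letters. The chaperones Pdia3, Pdia4 and P4hb, whose windows lacked the letters, were higher too. The calls of Alg12, Canx and Pdia6 were lost in some alternatives. A link of the letters to the change in RNA was not tested. The 250 bases before the start of Hspa5 (chr2:34771840-34772089, plus strand) are given whole. The other lines hold the element with 10 bases either side, 5′ to 3′ on the strand that reads as the element, and capitals mark the ERSE.
Hspa5, 46 bases before the start: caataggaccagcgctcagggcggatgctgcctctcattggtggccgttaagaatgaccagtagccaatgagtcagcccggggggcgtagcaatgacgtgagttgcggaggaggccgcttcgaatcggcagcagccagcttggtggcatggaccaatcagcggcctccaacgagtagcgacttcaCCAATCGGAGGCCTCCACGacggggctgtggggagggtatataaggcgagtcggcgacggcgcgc
Calr (chr8:84847075-84847093), 143 bases before: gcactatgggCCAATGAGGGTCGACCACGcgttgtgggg
Hsp90b1 (chr10:86705638-86705656), 193 bases before: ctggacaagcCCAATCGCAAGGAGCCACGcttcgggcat
Hsp90b1 (chr10:86705533-86705551), 88 bases before: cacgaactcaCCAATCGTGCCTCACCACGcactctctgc
Canx (chr11:50325800-50325818), 126 bases before: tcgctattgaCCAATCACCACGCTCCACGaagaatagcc
Pdia6 (chr12:17266491-17266509), 79 bases before: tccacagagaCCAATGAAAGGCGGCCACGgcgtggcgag
Alg12, 201 bases before, and Creld2, 107 bases before (chr15:88819520-88819538): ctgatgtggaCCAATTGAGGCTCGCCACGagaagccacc
Alg12 and Creld2 are transcribed away from each other and share this element, and Hsp90b1 has 2 copies. Outside the members, 30 genes had the letters in a window. Of the 16 of these that could be tested in RNA, 3 were higher at 48 h (Acacb, Adcy3 and Dnajc3) and 3 were lower (Derl3, Pan2 and Spats2l), near the 16.0% and 15.8% of all genes. A match is a description of letters and not of binding in these cells.

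The related element ERSE-II (ATTGGNCCACG) was in the windows of Dnajb11 and Herpud1, and in 0.0365% of all windows. It is shown in capitals because those genes gave different results, Dnajb11 being higher in RNA at 48 h and Herpud1 not passing.
Dnajb11 (chr16:22857852-22857862, after the start): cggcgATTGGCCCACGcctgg
Herpud1 (chr8:94386377-94386387, 41 bases before the start): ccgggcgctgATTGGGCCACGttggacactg
The unfolded protein response element TGACGTGG was in none of the 42 windows and in 0.676% of all. The cAMP response element TGACGTCA was in 1 (Alg13) and in 1.79% of all, and the core TGATGNAA of sites bound by Atf4 was in 1 (Herpud1) and in 3.97% of all. The CCAAT box, whose letters the ERSE contains and the ERSE-II reads on its other strand, was in 31 of the 42 windows (73.8%) and in 37.4% of all.

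The 12 genes of the unfolded protein response were split, with 7 higher at 48 h and 5 not passing, and their median log2 fold change of 0.31 was the lowest of the 5 groups. Of the sensors, Eif2ak3 (PERK), the kinase that slows translation, was higher. It is given for its role, outside the rule for full statistics. Its levels were 105, 93.8 and 94.1 CPM at 48 h and 73.4, 63.5 and 69.0 CPM at 0 h, or 97.7 ± 6.45 and 68.6 ± 4.97 CPM (mean ± SD, n = 3 each). The groups did not overlap, at 1.42-fold (log2 fold change 0.51 ± 0.09 SE, edgeR adjusted p = 0.00343). Ern1 (IRE1), the kinase and nuclease that splices Xbp1 mRNA, had 109, 85.5 and 78.9 CPM at 48 h and 77.3, 88.0 and 102 CPM at 0 h. Its groups overlapped throughout, and the log2 fold change was 0.03 ± 0.14 (SE, edgeR adjusted p = 0.890). Atf6, the membrane-bound factor released by cleavage, had 128, 122 and 104 CPM at 48 h and 98.3, 89.2 and 97.7 CPM at 0 h. It passed with a log2 fold change of 0.31, but did not pass without 48 h replicate 1 or 2 or any 0 h library (edgeR adjusted p = 0.0537 to 0.116).

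The transcription factors downstream of the sensors did not pass. They too are given for their role, with their values known. Xbp1, the factor activated by splicing, had 185, 179.8 and 187 CPM at 48 h and 182, 156 and 154 CPM at 0 h, with 0 h replicate 1 within the 48 h range. Its log2 fold change was 0.16 ± 0.09 (SE, edgeR adjusted p = 0.207), and gene counts do not separate its spliced form. Atf4, whose translation PERK favours, had 108, 109.9 and 113 CPM at 48 h and 117, 106 and 135 CPM at 0 h, an overlap with a log2 fold change of -0.11 ± 0.10 (SE, edgeR adjusted p = 0.424). Ddit3 (CHOP), a factor tied to cell death under lasting stress, had 7.90, 7.24 and 6.44 CPM at 48 h and 8.68, 11.2 and 10.03 CPM at 0 h. All its 48 h libraries lay below its 0 h libraries, and its log2 fold change of -0.47 ± 0.16 (SE) lay close to the threshold (edgeR adjusted p = 0.0530). Without 48 h replicate 1 or 0 h replicate 1 it passed as lower (0.0419 and 0.0405). Ddit3 overlaps Mbd6 and Mars1, whose counts over the 6 libraries (8110 and 10381) far exceed its own 910, so reads of the 3 genes may not be told apart.

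Among the 6 other genes, which are induced by the response or assist Hspa5, 5 were higher at 48 h. Dnajb11 (ERdj3, ID 67838, chr16:22857845-22879634), an Hsp40 that delivers unfolded chains to Hspa5, had 296, 303 and 281 CPM at 48 h and 179, 157 and 168 CPM at 0 h, or 293 ± 11.4 and 168 ± 11.1 CPM (mean ± SD, n = 3 each). It was 1.75 times higher, with the lowest adjusted p of the 48 members (log2 fold change 0.81 ± 0.09 SE, edgeR adjusted p = 5.86e-04). Its partner Sdf2l1 had 94.1, 89.7 and 92.6 CPM at 48 h and 62.7, 50.6 and 48.5 CPM at 0 h, or 92.1 ± 2.23 and 53.9 ± 7.65 CPM (mean ± SD, n = 3 each). It was 1.71 times higher (log2 fold change 0.77 ± 0.11 SE, edgeR adjusted p = 0.00127). Both proteins are known as one complex that keeps unfolded chains from clumping. Manf, a small protein of the ER lumen that binds Hspa5 and can be secreted, had 370.2, 381 and 361 CPM at 48 h and 256, 206 and 215 CPM at 0 h, or 371 ± 9.95 and 226 ± 26.4 CPM (mean ± SD, n = 3 each), and was 1.64 times higher (log2 fold change 0.72 ± 0.10 SE, edgeR adjusted p = 0.00173). Creld2, an ER-stress-inducible protein, had 205, 196 and 201 CPM at 48 h and 139.8, 118 and 123 CPM at 0 h, or 201 ± 4.19 and 127 ± 11.2 CPM (mean ± SD, n = 3 each), and was 1.58 times higher (log2 fold change 0.66 ± 0.09 SE, edgeR adjusted p = 0.00131). In these 4 genes the 48 h libraries were all above the 0 h libraries and close together.

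Dnajb9 (ERdj4), an Hsp40 whose gene is a known target of spliced Xbp1, was higher with a log2 fold change of 0.31. Its call was lost without 48 h replicate 2 or 3 or 0 h replicate 2 or 3 (edgeR adjusted p = 0.0554, 0.0799, 0.0816 and 0.106). Herpud1, a membrane protein of ER-associated degradation, had 100.4, 78.2 and 84.7 CPM at 48 h and 97.6, 71.2 and 78.7 CPM at 0 h. The groups overlapped, and its log2 fold change of 0.09 ± 0.14 (SE) did not pass (edgeR adjusted p = 0.649).

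The shift of each group was seen in every library. The median over the 48 members of log2(CPM + 0.5) minus the 0 h mean was 0.63, 0.39 and 0.35 in the 48 h libraries and 0.10, -0.12 and 0.01 in the 0 h libraries. The chaperones had medians of 0.76, 0.49 and 0.47 (48 h libraries) and 0.16, -0.13 and -0.04 (0 h libraries), and the unfolded protein response genes 0.36, 0.32 and 0.27 (48 h libraries) and 0.11, -0.09 and -0.02 (0 h libraries). The libraries did not overlap in any of the 5 groups. The 48 h replicate 1 library had the highest 48 h value in 37 of the 48 members. Without it, the member median was 0.39 against -0.03 for all genes, and all 8 chaperones were still called.

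**Figure D3:**
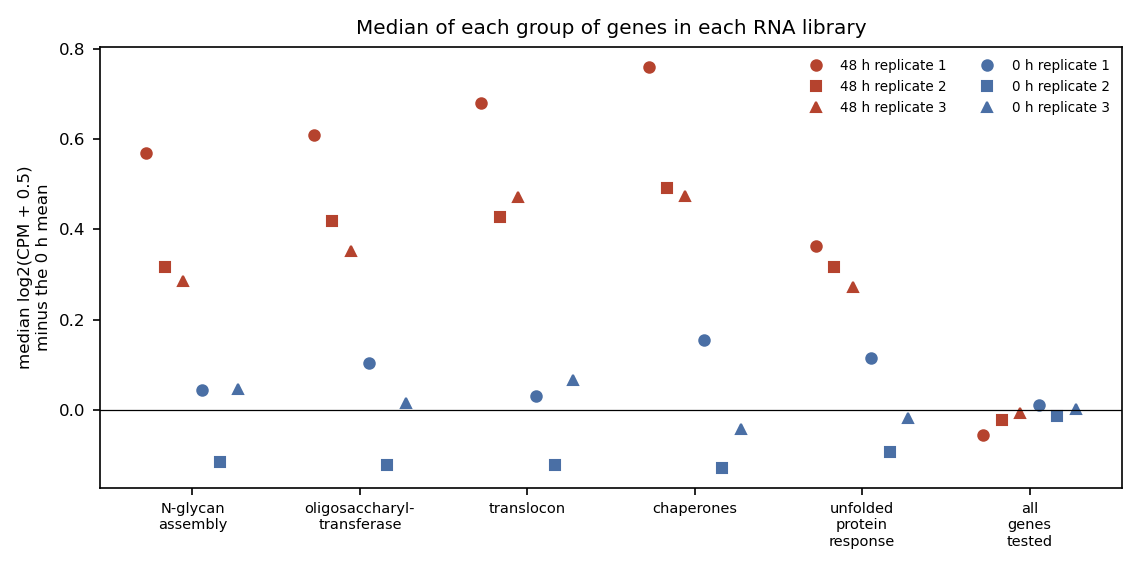
Median over the genes of each group, and over all genes tested, of log2(CPM + 0.5) minus the 0 h mean in each RNA library, with 48 h to the left of 0 h. In all 5 groups the 48 h libraries lie at 0.27 to 0.76 and the 0 h libraries at -0.13 to 0.16, with 48 h replicate 1 highest.

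A wider list held 89 other genes of the same pathway, chosen by function with earlier results known. Of these, 42 were higher at 48 h, 4 lower and 43 did not pass, with a median log2 fold change of 0.32. Of all genes tested, 16.0% were higher and 15.8% lower, the shares to set beside each sublist below. The 6 further subunits of oligosaccharyltransferase were all higher, from 0.34 for Tmem258 to 0.56 for Magt1, the oxidoreductase subunit of the Stt3b complex, which had 242, 202 and 186 CPM at 48 h and 155, 137 and 136 CPM at 0 h (edgeR adjusted p = 0.00731). With the members, 11 of 12 subunits were higher. Of 14 other folding factors, 11 were higher and 3 did not pass, led by Calu, a calcium-binding protein of the ER lumen, with a log2 fold change of 0.87 (edgeR adjusted p = 0.00114). Of 17 genes of signal recognition and signal peptidase, 7 were higher and 10 did not pass. Srprb, a subunit of the receptor that brings ribosomes to the ER, had the largest at 0.59 (edgeR adjusted p = 0.00406).

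In sugar and dolichol supply, 6 of 16 were higher and 1 lower. Mpdu1, needed to use dolichol-linked sugars in the lumen, had 115, 98.8 and 93.5 CPM at 48 h and 57.2, 54.9 and 59.2 CPM at 0 h, a log2 fold change of 0.84 ± 0.09 (SE, edgeR adjusted p = 6.0e-04). Pmm2, which makes mannose-1-phosphate, fell by 0.27 on the log2 scale (edgeR adjusted p = 0.0360). Glucosidases and glycoprotein quality control had 5 of 11 higher, led by the lectin Erlec1 at 0.79 (edgeR adjusted p = 7.2e-04). ER-associated degradation had 5 of 10 higher and 1 lower. Sel1l, the scaffold of the main ubiquitin ligase of the ER membrane, had 766, 688 and 685 CPM at 48 h and 448, 388 and 397 CPM at 0 h, a log2 fold change of 0.80 (edgeR adjusted p = 0.00109). Derl3, a derlin of the exit channel, had 78.1, 69.7 and 69.9 CPM at 48 h and 205, 153 and 162 CPM at 0 h, or 72.6 ± 4.75 and 173 ± 27.99 CPM (mean ± SD, n = 3 each). It fell by 1.25 on the log2 scale (edgeR adjusted p = 3.39e-04), while its relatives Derl1 and Derl2 were higher at 0.56 and 0.57.

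Of 15 stress signalling genes and targets of Atf4, 2 were higher and 2 lower, with a median log2 fold change of 0.04, shares near the 16.0% higher and 15.8% lower of all genes. Creb3, a membrane-bound transcription factor released by cleavage as Atf6 is, had the largest rise at 0.48 (edgeR adjusted p = 0.0063). Nupr1, a stress-induced chromatin protein, had 10.7, 11.2 and 12.7 CPM at 48 h and 41.5, 36.5 and 35.6 CPM at 0 h and fell by 1.72 on the log2 scale (edgeR adjusted p = 8.9e-05). Asns (asparagine synthetase), a classic Atf4 target, had 18.7, 16.3 and 17.1 CPM at 48 h and 32.7, 23.8 and 28.2 CPM at 0 h and fell by 0.70 (edgeR adjusted p = 0.0050). The Atf4 targets Trib3, Chac1 and Sesn2 did not pass. Members and the wider list together hold 137 genes, of which 77 were higher.

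**Figure D4:**
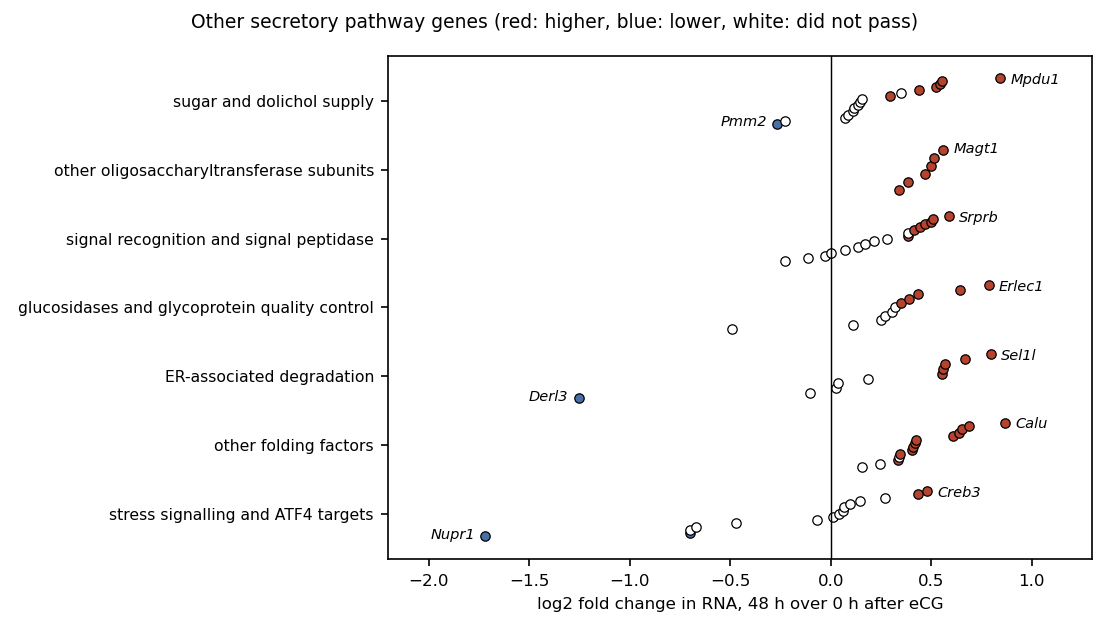
Log2 fold change in RNA, 48 h over 0 h, of 89 other genes of the pathway in 7 sublists; red points were higher, blue points lower and white points did not pass the threshold of 0.05. All 6 further oligosaccharyltransferase subunits are red, and the lowest points are Derl3 (-1.25) in ER-associated degradation and Nupr1 (-1.72) in the stress sublist.

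H3K4me3 at the same genes differed little between 48 h and 0 h. All 48 members had mean counts of 43.4 to 197 CPM, above the 17.5 CPM that bounds 95% of the 5129 genes with no RNA count. The window counted per gene is not known and neighbouring genes can share a count. The bound is therefore only a rough guide to the mark at each gene. By the same edgeR test over 24476 genes, 3 of the 48 members (6.25%) were higher at 48 h and none lower. Of all genes, 6.35% were higher and 2.08% lower, 8.42% together. All genes include ones below the 17.5 CPM bound, so their shares are not matched to the members in count. At an unadjusted p under 0.05, 1 member was lower, Atf6, and DESeq2 called no member in either direction. The median log2 fold change of the members was 0.05 and of all genes -0.00, with a range of -0.17 to 0.24. The groups of 2 libraries did not overlap in 22 of the 48 members with 48 h higher and in 7 of the 48 with 48 h lower. Of all genes, 26.5% had 48 h higher, a smaller share than of the members, and 22.8% had 48 h lower, a larger share. With library size alone as scaling 2 members were higher and 1, Atf6, was lower, with 945 genes higher and 862 lower over the table against 1554 and 508 with TMM.

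The 3 called members rest on small differences between 2 libraries a group, judged with a spread shared across genes. Calr had 146 and 149 CPM at 48 h and 122 and 129.5 CPM at 0 h, or 148 ± 2.14 and 126 ± 5.28 CPM (mean ± SD, n = 2 each), and was 1.176 times higher (log2 fold change 0.23 ± 0.07 SE, edgeR adjusted p = 0.0226). Sec62 had 130.4 and 119 CPM at 48 h and 99.3 and 113 CPM at 0 h, or 124 ± 8.41 and 106 ± 9.64 CPM (mean ± SD, n = 2 each), and was 1.17 times higher (log2 fold change 0.23 ± 0.07 SE, edgeR adjusted p = 0.0353). Dpm1 had 154 and 141 CPM at 48 h and 118 and 132 CPM at 0 h, or 148 ± 9.002 and 125 ± 10.2 CPM (mean ± SD, n = 2 each), and was 1.183 times higher (log2 fold change 0.24 ± 0.07 SE, edgeR adjusted p = 0.0231). In each the 2 libraries at 48 h lay above both at 0 h. None of the 3 calls held in every alternative: all were lost without 48 h replicate 1 (edgeR adjusted p = 0.0918, 0.407 and 0.333 for Calr, Sec62 and Dpm1) and without 0 h replicate 1 (0.499, 0.702 and 0.621), and Calr also without 48 h replicate 2 or 0 h replicate 2 (0.0891 and 0.0620). Rpn2, at 94.5 and 88.9 CPM at 48 h and 77.4 and 82.1 CPM at 0 h, did not pass (edgeR adjusted p = 0.0679) but did without 48 h replicate 2 (0.0319).

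Setting the assays side by side, 2 members, Calr and Sec62, were higher in both, 33 were higher in RNA without passing in H3K4me3, Dpm1 passed in H3K4me3 alone, and 12 passed in neither. Hspa5, higher in RNA, had 199 and 206 CPM of H3K4me3 at 48 h and 191 and 192 CPM at 0 h, a log2 fold change of 0.08 (edgeR adjusted p = 0.559). Dnajb11 had 113 and 115 CPM at 48 h and 111 and 113 CPM at 0 h, a log2 fold change of 0.03 (edgeR adjusted p = 0.879), and Atf6 119 and 126 CPM at 48 h and 136 and 141 CPM at 0 h, a log2 fold change of -0.17 (edgeR adjusted p = 0.116). A p above the threshold does not show that the mark was the same at both times. In the wider list 7 of 89 genes were higher in H3K4me3 and 3 lower, against 6.35% higher and 2.08% lower of all genes. Among the 3 lower were Nupr1, with a log2 fold change of -0.997 (edgeR adjusted p = 9.46e-09), and Derl3, with -0.67 (edgeR adjusted p = 2.9e-08). Both were also lower in RNA.

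**Figure D5:**
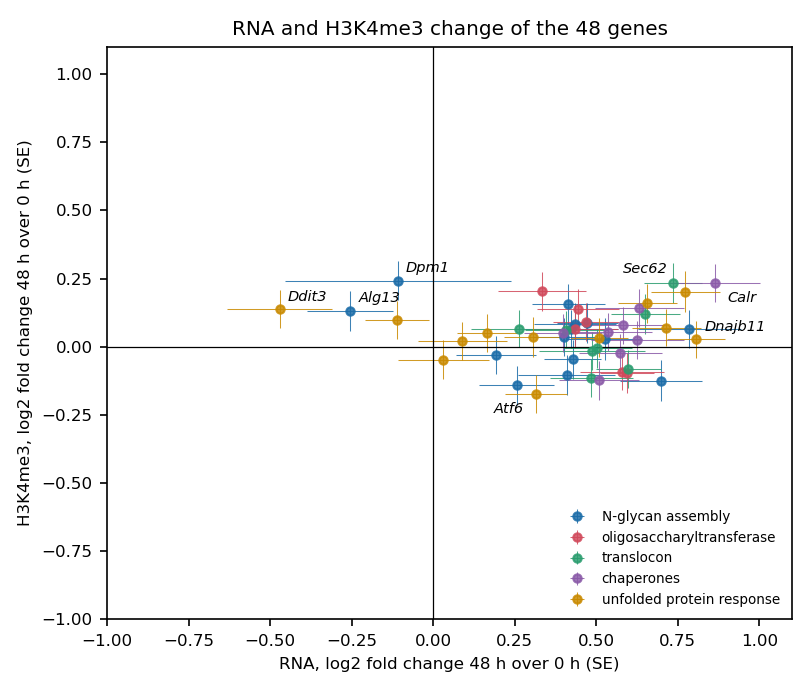
Log2 fold change in H3K4me3 (vertical) against that in RNA (horizontal), both 48 h over 0 h, for the 48 genes, coloured by group, with standard errors as bars. The points spread from -0.47 to 0.86 in RNA and only from -0.17 to 0.24 in H3K4me3, with Calr and Sec62 high on both.

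For 16 members, a gene within 5000 bp had an H3K4me3 count within 20%, so the mark there could not be assigned to a single gene. They include 2 pairs of members. Alg12 and Creld2 start 327 bases apart and had H3K4me3 log2 fold changes of 0.16 each (edgeR adjusted p = 0.198 and 0.193), with RNA log2 fold changes of 0.41 and 0.66. Alg2 and Sec61b had 0.06 and 0.07 (edgeR adjusted p = 0.666 and 0.652), with RNA log2 fold changes of 0.78 and 0.26. The stretch that the windows of Alg12 and Creld2 share (chr15:88819396-88819568, plus strand) is shown with the ERSE, which reads on the other strand, in capitals.
Alg12 and Creld2, shared stretch: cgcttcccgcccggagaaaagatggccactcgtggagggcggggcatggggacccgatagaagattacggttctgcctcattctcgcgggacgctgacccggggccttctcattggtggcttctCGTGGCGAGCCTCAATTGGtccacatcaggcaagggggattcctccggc
The H3K4me3 count of Dpm1 was identical in every library to that of Gm20716 and close to that of Mocs3, so its call may belong to any of the 3 genes.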

How the data were processed

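Granulosa cell RNA (3 libraries at 48 h, 3 at 0 h) and H3K4me3 ChIP-seq (2 and 2) were analysed from whole-number counts per Entrez gene ID, as the authors deposited them and with no normalization that the values show. Per the submitters' processing notes, Trimmomatic, Bowtie2 2.2.9, MACS2 2.2 and, with its version 1.18.0, ChIPseeker served the ChIP-seq libraries. For RNA the same notes name STAR, Picard, sleuth, kallisto and FastQC 0.11.5, and mm10 is the build of both. They give no role or order. Not given in the sources used here are the counting program, the use of strand and the window counted per gene for H3K4me3. An input DNA library was not used.

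Symbols, coordinates and promoter windows came from RefSeq tables of GRCm38.p6, with a symbol for 24742 of 24809 RNA IDs and 24472 of 24541 H3K4me3 IDs. In RNA, 5243 IDs had no count in any library. All 48 members, 89 wider pathway genes and 47 marker genes matched. No promoter window was found for Atf6, Manf, Alg11, Dpagt1, Alg2, Sec61a1 and Ssr2.

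Each assay was fitted over its whole table with edgeR 4.0.16 (R 4.3.3): TMM scaling, filterByExpr, the quasi-likelihood test and Benjamini-Hochberg adjustment, called under 0.05 with no fold minimum. The standard error comes from the test statistic and, like the p, uses spread shared across genes (biological coefficient of variation 0.141 in RNA, 0.0465 in H3K4me3). The fitting script was tested on simulated data. Levels are CPM computed here with TMM.

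Libraries of a group differed by more than sampling noise (chi-square per degree of freedom 5.16 to 38.5 in RNA, 1.69 and 4.00 in H3K4me3). That does not show that they came from separate mice. Each counts once, as the series calls them biological replicates. H3K4me3 columns were tied to a group by name, and the number ending the name served only to name a library. Replicate numbers were not used to pair libraries in the main fit. Alternatives were DESeq2 1.42.0, its size factors, library size alone, no filter, a replicate block and leaving out each library. Members overlapping another counted gene number 12.

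The members, lists and rules were chosen with earlier results of these data known. Full statistics go, per group, to at most 4 called members with groups that do not overlap and the largest absolute log2 fold, at most 2 not passing with the smallest, all members called in H3K4me3 and, per wider sublist, the largest rise and fall. Eif2ak3, Xbp1, Atf4 and Ddit3 were added for their role after their values were seen. Library values of Alg13, Atf6 and Asns in RNA and of Hspa5, Rpn2 and Atf6 in H3K4me3 are also given outside these rules.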

Additional observations from a re-analysis of the deposited data

How the results depend on the processing

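All 35 members called in RNA kept their direction in all 11 alternatives; 22 passed in each of them and 13 missed the threshold in at least 1, while 7 others passed in at least 1. No H3K4me3 call passed in all 9 alternatives. Leaving out 1 library gave 23 to 33 members higher and 0 to 1 lower in RNA (the 1 being Ddit3), with 1580 to 2697 of all genes higher and 1228 to 2648 lower, and 0 to 3 members higher in H3K4me3, with 159 to 2070 genes higher and 123 to 694 lower. Library size alone gave 3 members and 4222 genes lower in RNA, and in H3K4me3 1 member lower with 945 genes higher and 862 lower. It moved the RNA median of all genes to -0.20, against -0.03, and that of the members to 0.30. Scaling shifts all genes nearly alike, so the gap of 0.50 under both scalings does not test the choice of scaling. In H3K4me3 the DESeq2 test called 0 members, with 611 genes higher and 254 lower. The replicate block gave 30 members higher in RNA, with 1788 genes higher and 1524 lower, and in H3K4me3 0 members, with 908 genes higher. Deviations of same-numbered libraries from their group means had correlations of -0.22, -0.15 and -0.15 in RNA. So few libraries cannot show whether a number marks a shared batch, which the labels do not state. The cause of these moves was not tested. The low count of Dpm1 in RNA, 80 over the 6 libraries, limits its result, and the reason for it was not tested.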
